A study of Mus musculus with 6 samples.

Results

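The 32 genes described here encode the protein-folding and quality-control system of the endoplasmic reticulum (ER). They were taken as the rows of the count table whose symbol is 1 of 32 listed names, and all 32 were found among 47069 rows and had enough counts to be tested with 14165 genes. They were read in 4 branches: 13 chaperones and their cofactors, 7 oxidoreductases that make or reshuffle disulfide bonds, 4 sensors and transcription factors, and 8 genes of ER-associated degradation (ERAD). The question was which branch, if any, moved when mdx mouse myoblasts were given PSB-KD107. No member passed an adjusted p under 0.05 in the edgeR test used throughout, which called 0% of all genes tested. At that threshold DESeq2, the tool of the study's methods, called 3 members higher (9.38%), against 2.26% of the genes it tested. At an unadjusted p under 0.05 by edgeR, 7 of the 32 were higher with PSB-KD107 (21.9%), against 6.47% of all genes tested. The chaperone branch held 5 of these 7, among them Hspa5 (1.40-fold) and Canx (1.35-fold). The ERAD branch contributed Herpud1 (1.52-fold) and the oxidoreductase branch Ero1l (6.71-fold), or 12.5% and 14.3% of their genes. Ero1l spread from 28.6 to 238 CPM with PSB-KD107, and its log2 fold change of 2.75 was 1.78 without PSB-KD107 library 4. No sensor or transcription factor passed that threshold in either direction.

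Secreted and membrane proteins fold inside the ER, where chaperones hold them, protein disulfide isomerases pair their cysteines and ERAD sends those that fail to the proteasome. When unfolded proteins build up, the unfolded protein response is set off through 3 sensors in the ER membrane, IRE1 (gene Ern1), ATF6 and PERK (gene Eif2ak3). IRE1 splices the Xbp1 mRNA and ATF6 is cut free from the membrane, and the resulting transcription factors raise chaperone and ERAD genes. PERK instead slows translation and raises ATF4, which also answers other stresses. In muscle the same compartment is continuous with the calcium store that drives contraction.

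The cells were myoblasts grown from muscle stem cells of mdx mice, which lack dystrophin and are a model of Duchenne muscular dystrophy. Per the labels, cultures in growth medium with serum and FGF2 received PSB-KD107, a synthetic agonist of the receptor Gpr18, at 10 µM for 2 days, or vehicle, with 3 libraries in each group. The methods of the study give a shorter treatment than the labels and sorting of the stem cells by surface markers before culture. Each culture therefore descends from a sorted and expanded population. The methods also name 3 different mdx mice as the source of the cells, without stating which libraries share a mouse. In both groups the columns of the table carry the numbers 1, 2 and 4, which name the libraries here. Both groups carry the mdx mutation and the table holds no wild-type cells. In bulk RNA, a difference in the number of cells of one kind and a difference in RNA per cell cannot be told apart.

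Each library held between 30917613 and 48756794 counts, and values are given as CPM, counts scaled to a common library size, after TMM scaling, whose factors lay between 0.974 and 1.03. Although the cells are labelled as muscle stem cells, transcripts of differentiated muscle were abundant, with embryonic myosin Myh3 between 17160 and 18260 CPM in vehicle and between 11840 and 14590 CPM with PSB-KD107. Of 7 markers of differentiated muscle, Myh3 and the transcription factor Myog were lower with PSB-KD107 at an unadjusted p under 0.05 by edgeR. These were 28.6% of the list, against 2.93% of all genes tested, and none was higher. By log2 fold change 4 of the 7 were above 0 and 3 below, with a median of 0.007. The summed CPM of the 7, of which Myh3 was the largest part, was 29870 to 38660 in vehicle and 25170 to 30650 with PSB-KD107. Of 7 myoblast markers, Pax7 was lower at an unadjusted p under 0.05 by edgeR, at 49.9 to 68.8 CPM in vehicle and 26.8 to 35.1 CPM with PSB-KD107. In that list 3 markers had a log2 fold change above 0 and 4 below, with a median of -0.11. Summed fibroblast markers stayed between 1.83 and 10.6 CPM, macrophage markers between 0.688 and 6.58 CPM and endothelial markers between 0.31 and 1.40 CPM over the 6 libraries, none of their 7 genes with enough counts to be tested passed that threshold by edgeR, and Lum and Adgre1 had no count in any of them. By DESeq2 the fibroblast marker Ly6a and the macrophage marker Cd68 had an unadjusted p under 0.05 (adjusted p = 0.285 and 0.44), and Ly6a was at 8.36 CPM in PSB-KD107 library 4 against 0.155 to 1.29 CPM elsewhere. Their part in the members' values was not tested. A count of 0 here allows up to 3 counts, or 0.0596 to 0.0962 CPM depending on the library, counting error alone considered. Library 4 of PSB-KD107 stood apart, with 507 genes (3.58%) at 2 or more times the CPM of every other library, against 3 to 169 genes in the other libraries. Ero1l was the single member among those 507 genes.

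The promoters of these genes carry short elements through which the response is known to act, and RefSeq (GRCm38.p6) gave a window from 250 bases before to 50 bases after the transcription start for 27 of the 32 members. The ER stress response element, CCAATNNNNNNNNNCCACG, binds NF-Y at its first part and ATF6 at its last, and it was found on either strand in 10 of the 27 member promoters (37%) and in 37 of 27025 promoters in all (0.137%). A second form, ATTGGNCCACG, was found in 2 members (7.41%) and in 12 promoters in all (0.0444%); a stretch could match both forms, and none of the members here had both. The sites are shown because they stand in members that were higher with PSB-KD107 and in members that were not. Each is written on the strand that reads CCAAT first, with the fixed letters in capitals.
Hspa5: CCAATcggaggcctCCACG
Hsp90b1, distal: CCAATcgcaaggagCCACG
Hsp90b1, proximal: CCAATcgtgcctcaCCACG
Canx: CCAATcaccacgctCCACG
Calr: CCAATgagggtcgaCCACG
Dnajc3: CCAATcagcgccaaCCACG
Creld2: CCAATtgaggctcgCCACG
Pdia6: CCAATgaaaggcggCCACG
Ero1lb: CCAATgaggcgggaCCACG
Syvn1: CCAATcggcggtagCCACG
Derl3: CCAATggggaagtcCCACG
The second form was read as follows in the remaining pair of genes.
Dnajb11: ATTGGcCCACG
Herpud1: ATTGGgCCACG

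By branch, 7 of 10 chaperone promoters held either form (70%), with 2 of 7 oxidoreductases, 3 of 7 ERAD genes, 0 of 3 sensors and 0 of 16 promoters of the PERK and ATF4 arm. The UPR element TGACGTGG was in none of the 27 windows and in 0.714% of all promoters. Herpud1 was the one member whose window also held the C/EBP-ATF composite TGATGCAAC, which ATF4 binds, at 113 bases before its start, and this motif was in 0.192% of all promoters. It was also found in Chac1 and Vldlr of the ATF4 arm, and the variant TGATGCAAT in Nupr1. The 220 bases before the RefSeq start are given below for Herpud1 and Canx, the members of smallest p in their branches, and for Syvn1, which has the element and a log2 fold change of -0.13. Capitals mark the fixed letters of the elements, and the composite of Herpud1 reads GTTGCATCA on this strand.
Herpud1, chr8:94386209-94386428, plus strand: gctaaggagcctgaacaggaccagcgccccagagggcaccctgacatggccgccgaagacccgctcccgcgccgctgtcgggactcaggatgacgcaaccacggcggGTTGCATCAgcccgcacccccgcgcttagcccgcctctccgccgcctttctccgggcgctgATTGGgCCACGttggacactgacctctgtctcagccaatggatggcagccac
Canx, chr11:50325674-50325893, minus strand: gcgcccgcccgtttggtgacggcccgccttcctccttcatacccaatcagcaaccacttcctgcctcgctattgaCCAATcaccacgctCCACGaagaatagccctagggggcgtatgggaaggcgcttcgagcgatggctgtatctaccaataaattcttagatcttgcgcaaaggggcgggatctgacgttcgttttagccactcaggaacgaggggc
Syvn1, chr19:6046356-6046575, plus strand: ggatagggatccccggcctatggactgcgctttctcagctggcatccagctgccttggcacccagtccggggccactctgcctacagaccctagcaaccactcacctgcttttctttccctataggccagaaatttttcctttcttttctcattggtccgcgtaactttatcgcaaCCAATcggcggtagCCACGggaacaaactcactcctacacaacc

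In vehicle cells the members covered a wide range of levels per kilobase of annotated exon. Calr, a lectin-like chaperone, stood at 189 ± 3.23 CPM per kb (mean ± SD, n = 3) and Hspa5 at 181 ± 17.1, which did not differ beyond their spread. Hsp90b1 (152 ± 1.04), Pdia3 (144 ± 5.88), P4hb (139.9 ± 19.6) and Canx (108 ± 0.401) followed, and these 6 were the members above 100 CPM per kb. Another 19 members lay between 10 and 100 CPM per kb. The 7 members below 10 included the sensor Ern1 at 3.68 ± 0.879, Ero1l at 3.40 ± 1.38, its paralog Ero1lb at 0.63 ± 0.0738 and Derl3 at 0.156 ± 0.0022 CPM per kb. Ern1 and Ero1l did not differ beyond their spread. With PSB-KD107 the mean of Ero1l was 22.8 CPM per kb, with most of it from library 4 (238 CPM, against 94.8 and 28.6 CPM in libraries 1 and 2), while Ero1lb remained at 0.74 and Derl3 at 0.176.

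Together the members took 5855 to 6042 CPM in the vehicle libraries and 6715 to 7342 CPM in the PSB-KD107 libraries. Of the difference between the 2 group means, 1187 CPM, Hspa5 made up 25.7%, Canx 15.1%, Hsp90b1 13.5%, P4hb 10.6% and Ero1l 8.64%. Ero1l accounted for 0.302% of the members' summed CPM in vehicle. Chaperones summed to 3306 to 3479 CPM in vehicle and 3930 to 4335 CPM with PSB-KD107, so the groups were separate. ERAD genes summed to 654 to 713 CPM and 766 to 850 CPM, also separate. The sums of the oxidoreductases (1315 to 1447 and 1399 to 1799 CPM) and of the sensors (404 to 580 and 493 to 620 CPM) overlapped between groups.

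Across single members, 26 had a log2 fold change above 0 (81.2%, against 49.9% of all genes tested) and 6 below. The edgeR quasi-likelihood test with Benjamini-Hochberg adjustment over all 14165 genes called no member at an adjusted p under 0.05, the smallest being 0.184 for Herpud1, and it called 0% of all genes. At an unadjusted p under 0.05, 7 members were higher, or 21.9% of the 32, and none was lower, against 6.47% and 2.93% of all genes tested. DESeq2, the tool of the study's methods, called 3 members higher and none lower at an adjusted p under 0.05 (9.38% of the members), against 2.26% of genes called higher and 0.719% called lower. In 11 members (34.4%) every PSB-KD107 library lay above every vehicle library and in none below, against 9.2% and 6.59% of all genes. The median log2 fold change was 0.19 over the members and -0.00074 over all genes tested. Between libraries of the same number, 21 members were higher with PSB-KD107 in all 3 comparisons (65.6%) and 2, Ppib and Atf6b, were lower in all 3 (6.25%), against 20.9% and 21% of all genes tested. The p-values measure the spread between these cultures.

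**Figure D1:**
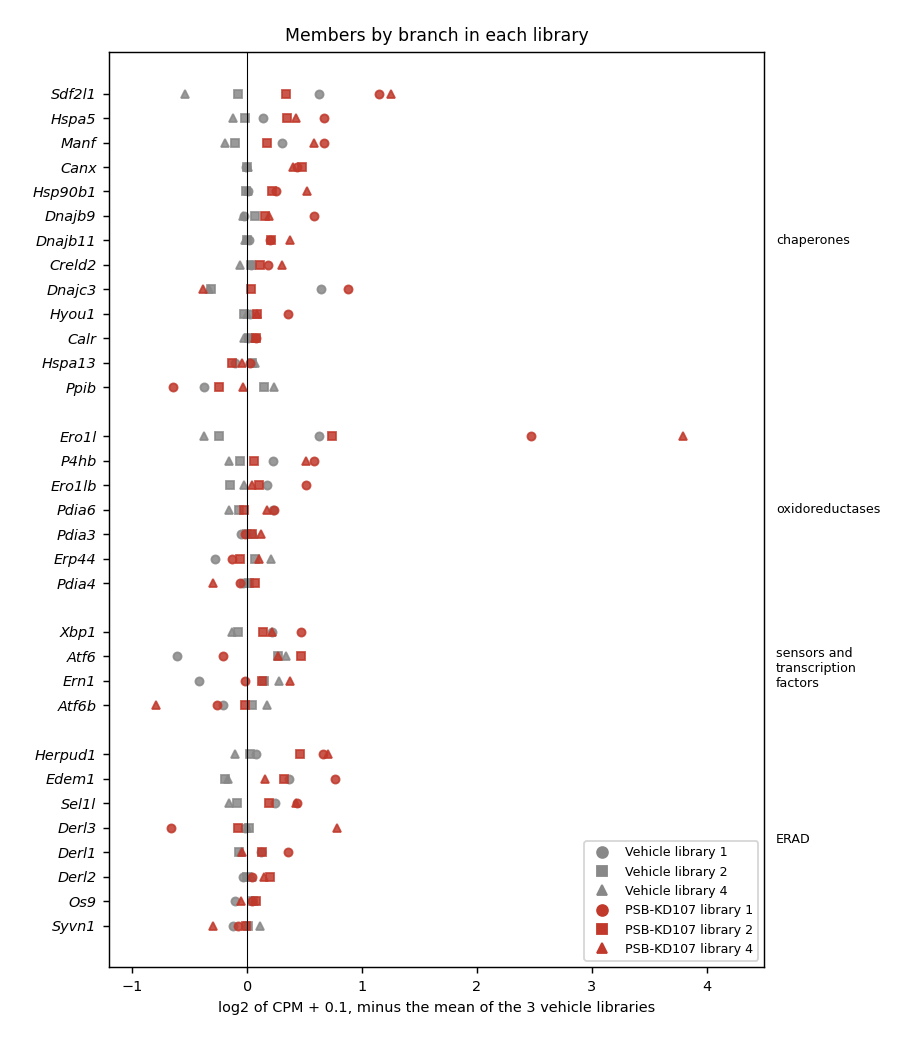
Each row is 1 of the 32 members, ordered by fold change within its branch, and the horizontal axis is log2 of CPM + 0.1 minus the mean of the 3 vehicle libraries on that scale. Grey symbols are vehicle and red symbols PSB-KD107 libraries, with circles, squares and triangles for libraries 1, 2 and 4. Canx, Hspa5, Hsp90b1 and Herpud1 have all red symbols to the right of all grey ones, and Ero1l reaches the farthest right in libraries 1 and 4.

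In the chaperone branch 11 of 13 genes had a log2 fold change above 0 (84.6%), against 49.9% of all genes tested. By edgeR 5 were higher at an unadjusted p under 0.05 (38.5%, against 6.47% of all genes). Groups were separate, with PSB-KD107 higher, for 8 (61.5%, against 9.2% of all genes). The branch's median was 0.26. Hspa5 (ENSMUSG00000026864, chr2:34771970-34777547, plus strand, GENCODE M21 on GRCm38) encodes BiP, the Hsp70 of the ER and the protein that holds the sensors inactive. It was at 844, 758 and 700 CPM in vehicle libraries 1, 2 and 4 and at 1219, 972 and 1026 CPM in the PSB-KD107 libraries of the same numbers. Every treated library was above every vehicle library, with a log2 fold change of 0.48 ± 0.14 (SE, unadjusted p = 0.0122 by edgeR, adjusted p = 0.373). In DESeq2 its adjusted p was 0.0982, and with 1 library left out it lay between 0.0365 and 0.604.

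Canx (ENSMUSG00000020368, chr11:50293961-50325673, minus strand) encodes calnexin, the membrane-bound lectin chaperone that holds glycoproteins while they fold. It was at 505, 508 and 509 CPM in vehicle and at 686, 706 and 668 CPM with PSB-KD107. Both groups were narrow and far apart, and the log2 fold change was 0.44 ± 0.09 (unadjusted p = 0.00253, adjusted p = 0.23 by edgeR). DESeq2 called it with an adjusted p of 2.73e-04 and in each of 6 repeats with 1 library left out (adjusted p between 1.88e-06 and 0.026). Its soluble relative Calr, calreticulin, was at 549, 552 and 534 CPM in vehicle and 575, 574 and 572 CPM with PSB-KD107. These groups were also separate, but the log2 fold change was 0.07 ± 0.09 (unadjusted p = 0.431 by edgeR).

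Hsp90b1 (ENSMUSG00000020048, chr10:86690209-86705509, minus strand) encodes the ER Hsp90, which folds integrins and Toll-like receptors among others. It was at 615, 608 and 615 CPM in vehicle and at 729, 710 and 880 CPM with PSB-KD107, a log2 fold change of 0.34 ± 0.12 (unadjusted p = 0.0298 by edgeR). Library 4 was the highest, and without it the log2 fold change was 0.23. Dnajb11, a J-domain cofactor of BiP, was at 146, 145 and 143 CPM in vehicle and 166, 167 and 188 CPM with PSB-KD107 (0.26 ± 0.09, unadjusted p = 0.0238 by edgeR). Both genes had separate groups, and both lost the unadjusted threshold when vehicle 1, 2 or 4 was left out (unadjusted p between 0.052 and 0.103 by edgeR).

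Manf, a secreted ER stress protein that binds BiP, was at 101, 76.5 and 71.8 CPM in vehicle and 131, 92.9 and 123 CPM with PSB-KD107. PSB-KD107 library 2 fell below vehicle library 1, so the groups overlapped, and the log2 fold change of 0.48 ± 0.19 (unadjusted p = 0.044 by edgeR) passed the unadjusted threshold in 2 of 6 repeats with a library left out, those without vehicle 1 and without PSB-KD107 2. Sdf2l1, a partner of the BiP cofactor Dnajb11, was at 17.2, 10.5 and 7.63 CPM in vehicle and 24.8, 14.1 and 26.7 CPM with PSB-KD107. Its log2 fold change of 0.89 ± 0.38 was the highest of the 13 and its groups overlapped (unadjusted p = 0.0544 by edgeR). Dnajb9, another J-domain cofactor, was at 49.8, 53.3 and 49.7 CPM in vehicle and 76.2, 56.8 and 57.9 CPM with PSB-KD107 (0.32 ± 0.14, unadjusted p = 0.0591 by edgeR), with groups that were separate but nearly touched.

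Of the other chaperone members, Hyou1, which exchanges nucleotide on BiP, had a log2 fold change of 0.18 ± 0.11 and Creld2 one of 0.20 ± 0.10, each with separate groups. Without PSB-KD107 library 1 the log2 fold change was 0.067 for Hyou1 and 0.16 for Dnajb9. Dnajc3, a J-domain protein that also restrains PERK, was at 120 CPM in vehicle library 1 and 141 CPM in PSB-KD107 library 1 but at 59.0 to 78.5 CPM in the other 4 libraries. Its value followed the library number rather than the treatment, and its log2 fold change of 0.20 ± 0.41 turned to -0.26 without PSB-KD107 library 1. Hspa13 had a log2 fold change of -0.05 ± 0.10. Ppib, the ER cyclophilin B, was at 155, 223 and 238 CPM in vehicle and 129, 170 and 197 CPM with PSB-KD107 (-0.31 ± 0.22, unadjusted p = 0.204 by edgeR), with overlapping groups.

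**Figure D2:**
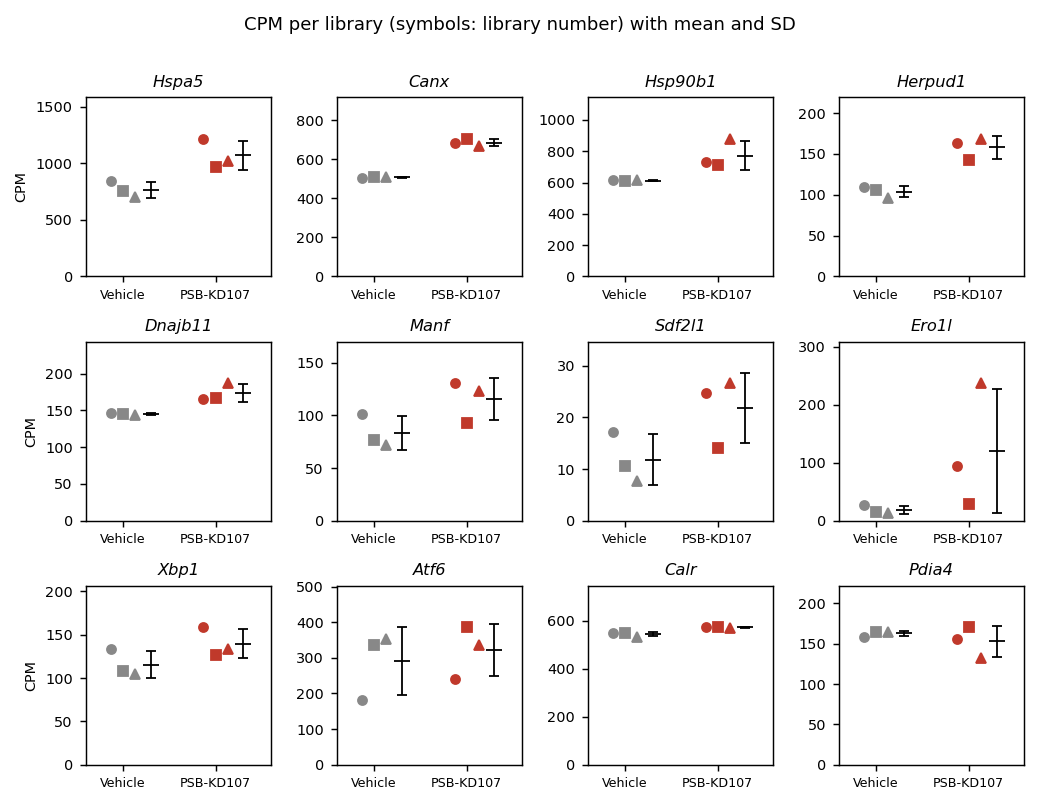
CPM per library of 12 members in vehicle (grey) and PSB-KD107 (red), with circles, squares and triangles for libraries 1, 2 and 4 and the mean with its SD (n = 3) beside them; every vertical axis starts at 0. The 3 values of Canx are 505 to 509 CPM in vehicle and 668 to 706 CPM with PSB-KD107, whereas those of Ero1l spread from 28.6 to 238 CPM with PSB-KD107 and those of Atf6 overlap.

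Among the 7 oxidoreductases the median log2 fold change was 0.12, and 1 was higher at an unadjusted p under 0.05 (14.3%, against 6.47% of all genes tested). Ero1l (ENSMUSG00000021831, chr14:45283087-45318771, minus strand; named Ero1a in RefSeq) encodes an oxidase that recharges protein disulfide isomerases with oxygen as the acceptor. It was at 26.4, 14.4 and 13.1 CPM in vehicle and at 94.8, 28.6 and 238 CPM with PSB-KD107. All 3 treated libraries were above all vehicle libraries, but PSB-KD107 library 2 exceeded vehicle library 1 by little and library 4 was far above the rest. The log2 fold change was 2.75 ± 0.77 (unadjusted p = 0.0115 by edgeR, adjusted p = 0.365), and it was 1.78 without PSB-KD107 library 4 (unadjusted p = 0.0276 by edgeR). DESeq2 gave an adjusted p of 0.00286, and without vehicle 2 or vehicle 4 it was 0.108 and 0.103.

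Its paralog Ero1lb, which has the ER stress response element that the Ero1l window lacks, was at 4.72, 3.75 and 4.10 CPM in vehicle and 5.98, 4.49 and 4.29 CPM with PSB-KD107 (0.23 ± 0.23, unadjusted p = 0.353 by edgeR). P4hb, the protein disulfide isomerase that is also a subunit of prolyl 4-hydroxylase, was at 464, 380 and 357 CPM in vehicle and 596, 413 and 569 CPM with PSB-KD107 (0.39 ± 0.18, unadjusted p = 0.0714 by edgeR), with 1 overlapping library. The other isomerases were Pdia3 (0.05 ± 0.09), Pdia6 (0.12 ± 0.14) and Pdia4 (-0.09 ± 0.11), and the retention factor Erp44 was at -0.04 ± 0.15. None of these 4 had separate groups. A change of the size seen for Canx lay well outside about 2 SE for Pdia3, Pdia4 and Erp44, but only just outside for Pdia6. With 3 libraries a group, 2 SE is too narrow a range to exclude such a change for Pdia6.

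The 4 sensors and transcription factors had log2 fold changes between -0.33 and 0.27, none with separate groups. Xbp1 was at 133, 109 and 105 CPM in vehicle and 159, 127 and 134 CPM with PSB-KD107 (0.27 ± 0.14, unadjusted p = 0.0988 by edgeR; 0.15 without PSB-KD107 library 1); the treated library was the higher one for each number, but vehicle library 1 was above PSB-KD107 library 2. Atf6 was at 183, 336 and 354 CPM in vehicle and 242, 386 and 336 CPM with PSB-KD107 (0.14 ± 0.30), so that both libraries numbered 1 were low whatever the treatment. Ern1, at 22.0, 32.6 and 35.7 CPM in vehicle and 29.1, 32.2 and 38.1 CPM with PSB-KD107 (0.14 ± 0.21), had the same low libraries. Without vehicle library 1 the log2 fold change was -0.11 for Atf6 and -0.05 for Ern1. Atf6b was at 65.8, 78.5 and 86.0 CPM in vehicle and 63.6, 75.2 and 43.9 CPM with PSB-KD107 (-0.33 ± 0.22), where library 4 was lowest. Gene counts hold no measure of Xbp1 splicing, of ATF6 cleavage or of IRE1 phosphorylation.

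The 8 ERAD genes had a median log2 fold change of 0.16 and 7 were above 0 (87.5%, against 49.9% of all genes tested). Herpud1 (ENSMUSG00000031770, chr8:94386438-94395377, plus strand) encodes a membrane protein that gathers the ERAD ubiquitin ligase complex. It was at 109, 105 and 96.3 CPM in vehicle and 163, 142 and 169 CPM with PSB-KD107. The groups were well apart, and the log2 fold change was 0.61 ± 0.10 (unadjusted p = 0.00105 by edgeR, adjusted p = 0.184), the smallest p of all members. It stayed under the unadjusted threshold in each of 6 repeats with 1 library left out, as did Canx, Hspa5 and Ero1l. DESeq2 gave an adjusted p of 0.00245, and without vehicle 2 or vehicle 4 it was 0.0652 and 0.0721.

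Syvn1, the ubiquitin ligase HRD1 that Herpud1 works with, was at 74.0, 81.2 and 87.1 CPM in vehicle and 76.1, 79.9 and 65.5 CPM with PSB-KD107 (-0.13 ± 0.12, unadjusted p = 0.305 by edgeR). Sel1l, its adaptor, was at 167, 133 and 126 CPM in vehicle and 190, 160 and 189.9 CPM with PSB-KD107 (0.34 ± 0.14, unadjusted p = 0.0505 by edgeR). Edem1, a mannosidase-like lectin that picks substrates, had a log2 fold change of 0.41 ± 0.23, and Os9, a lectin of the same step, one of 0.02 ± 0.09. Of the derlins, which form the exit channel with Syvn1, Derl1 was at 0.15 ± 0.13 and Derl2 at 0.13 ± 0.09, the latter with separate groups. Without PSB-KD107 library 1 the log2 fold change was 0.20 for Edem1 and 0.024 for Derl1. Derl3 was barely expressed, at 0.306 to 0.315 CPM in vehicle and 0.159 to 0.605 CPM with PSB-KD107, where 3 counts give 0.0596 to 0.0962 CPM, and its log2 fold change of 0.16 ± 0.54 carries no direction.

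Set against the promoter elements shown above, 5 of the 12 members with either element were higher at an unadjusted p under 0.05 (Hspa5, Hsp90b1, Canx, Dnajb11 and Herpud1), and the 12 had a median of 0.22 on the log2 scale. Of the 15 members with a window and no element, 1 was higher (Ero1l), with a median of 0.14, and of the 5 members without a window, 1 was higher (Manf), with a median of 0.15. Over all genes tested, 6.47% were higher at that threshold. Outside the members, 14 further genes tested had an element, of which 1 was higher (Acacb, an acetyl-CoA carboxylase, 0.75) and none lower, with a median of -0.06. Calr, Pdia6, Syvn1 and Derl3 carry the element with log2 fold changes between -0.13 and 0.16. The counts are a description of these windows, and a match of letters is no measure of binding.

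The genes around these branches were set beside them. In the PERK and ATF4 arm, 12 of 17 genes were higher at an unadjusted p under 0.05 by edgeR (70.6%, against 6.47% of all genes tested) and none lower. DESeq2 called 8 higher (47.1%, against 2.26%), and the median log2 fold change was 0.78. This list was chosen with earlier results of these data known, and the study names its genes Trib3 and Chac1 as upregulated. Its share is therefore no independent support. Trib3, a pseudokinase that restrains ATF4, was at 2.49 to 4.44 CPM in vehicle and 34.8 to 56.4 CPM with PSB-KD107 (3.75 ± 0.34). Ddit3, the transcription factor CHOP, was at 9.06 to 12.03 and 47.5 to 81.1 CPM (2.44 ± 0.26), the transcription factor Atf5 at 53.0 to 71.5 and 169.9 to 200.7 CPM (1.61 ± 0.14) and Chac1, which degrades glutathione, at 6.02 to 6.67 and 16.8 to 36.5 CPM (2.13 ± 0.30). Atf4 itself was at 218 to 254 and 276 to 451 CPM (0.69 ± 0.20, unadjusted p = 0.0128 by edgeR). The kinase gene Eif2ak3 was at 18.6 to 21.7 and 13.5 to 27.8 CPM (0.05 ± 0.27), and Ppp1r15a, the phosphatase subunit that ends the response, at 50.03 to 83.7 and 75.8 to 135 CPM (0.61 ± 0.27, unadjusted p = 0.0682 by edgeR). The same libraries entered both sets of values, and the difference between the lists was not tested.

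The remaining lists of ER genes had medians between -0.07 and 0.15, the last for collagen-folding enzymes, whose median was -0.15 without PSB-KD107 library 4. Genes of these lists past the unadjusted threshold are named below, where 6.47% of all genes tested were higher and 2.93% lower by edgeR. Of 11 ATF6-processing proteases and related ER-bound factors, Mbtps2 was higher (0.26 ± 0.10) and Mbtps1, the protease that makes the first cut in ATF6, lower (-0.47 ± 0.13) at an unadjusted p under 0.05, with Wfs1 at 0.43 ± 0.20, and the list's median was -0.06. Of 28 further ER oxidoreductases and folding factors, 1 was higher (Tmx2, 0.28 ± 0.10), with Fkbp11 at 1.33 ± 0.59 and Fkbp14 at -0.42 ± 0.21, and the median was -0.06. None of 25 further ERAD genes tested passed (median -0.07), the smallest p belonging to Rnf185 (0.30 ± 0.15), Selk (0.74 ± 0.39) and Rnf139 (-0.22 ± 0.15). None of 17 translocon and signal peptidase genes passed (median 0.02), with Ssr3 at 0.24 ± 0.14, Spcs3 at 0.23 ± 0.14 and Sec61b at 0.28 ± 0.21.

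Of 14 genes of N-glycosylation, the oligosaccharyltransferase subunits Magt1 (0.61 ± 0.17) and Stt3b (0.31 ± 0.11) were higher and the glucosidase Mogs lower (-0.35 ± 0.12), with a median of -0.02. That is 14.3% higher and 7.14% lower, against 6.47% and 2.93% of all genes tested. Magt1 and Stt3b sit in the same form of the enzyme, and Stt3a of the other form was at 0.06 ± 0.16. Among further listed subunits, Tusc3 was at -0.10 ± 0.12, Ostc at 0.20 ± 0.27 and Krtcap2 at 0.12 ± 0.13. Of the 14 genes, 7 were above 0 and 7 below, and a difference between the forms was not tested. Of 12 genes of ER calcium handling, the calcium pump Atp2a3 (0.516 to 1.02 CPM in vehicle and 1.57 to 5.78 CPM with PSB-KD107) and the calcium channel Itpr3 (5.64 to 6.63 and 7.38 to 29.5 CPM) were higher, with Rcn1 at -0.20 ± 0.09 and a median of 0.01. The higher genes were 16.7% of that list, against 6.47% of all genes tested.

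**Figure D3:**
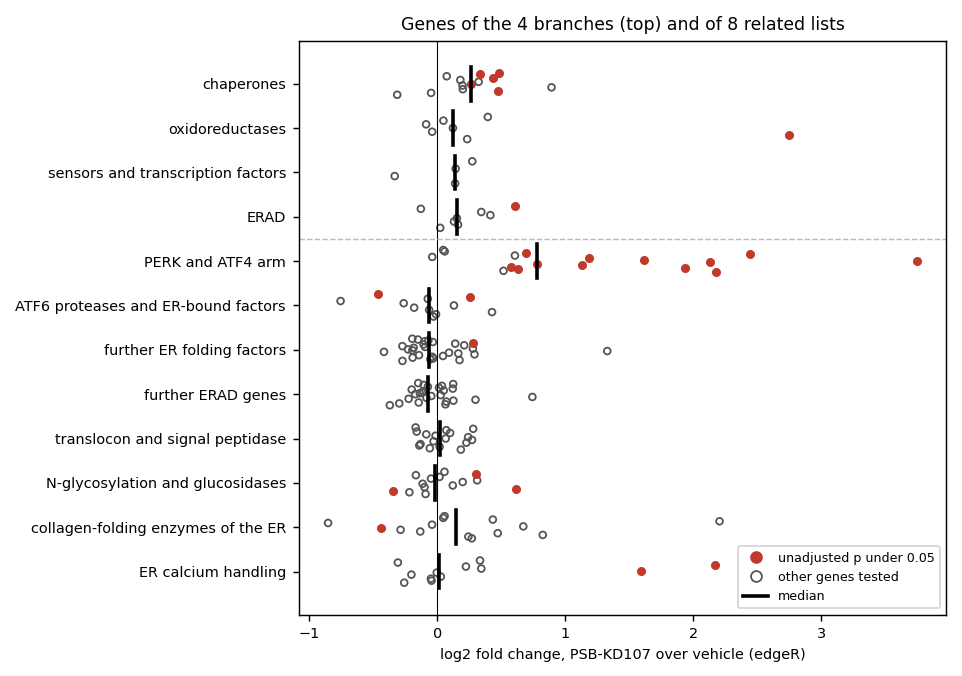
Log2 fold change of PSB-KD107 over vehicle from edgeR for every tested gene of the 4 branches (above the dashed line) and of 8 related lists, 1 point per gene, filled red where the unadjusted p is under 0.05, with a black bar at each list's median. The medians run from 0.12 to 0.26 in the branches, 0.78 in the PERK and ATF4 arm and -0.07 to 0.15 in the other lists.

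Ero1l was the one member that PSB-KD107 library 4 set at 2 or more times every other library. Of 14 collagen-folding enzymes of the ER, 3 were higher by a wide margin in that library alone: P4ha2 was at 152 CPM against 9.01 to 14.9 CPM in the other 5, Plod2 at 354 against 84.97 to 102 CPM and P4ha1 at 473 against 182 to 216 CPM. Their log2 fold changes between groups (2.20 ± 1.07, 0.82 ± 0.55 and 0.43 ± 0.39) did not pass the unadjusted threshold by edgeR, and P3h3 was the list's one gene that did (-0.44 ± 0.13), with P3h2 at 0.67 ± 0.34. P4ha1, P4ha2, Plod2 and Ero1l are known targets of the hypoxia-inducible factor. Of 12 further genes induced by hypoxia, a list chosen after these values were seen, 10 were highest in PSB-KD107 library 4, the library in which 25.7% of all genes tested were highest, and 5 (Ankrd37, Egln3, Egln1, Bnip3 and Pdk1) were there at 2 or more times every other library. Their summed CPM was 2640, 1428 and 1228 in vehicle and 3175, 1685 and 5726 with PSB-KD107, and the order of the 6 libraries differed from that of Ero1l in that vehicle library 1 exceeded PSB-KD107 library 2. All 12 had a log2 fold change above 0, against 49.9% of all genes tested. By edgeR 3 were higher at an unadjusted p under 0.05 (Vegfa, Ndrg1 and Slc2a1, or 25%, against 6.47%). Ddit3 of the ATF4 arm was at 9.06 to 12.03 CPM in vehicle. In PSB-KD107 libraries 1, 2 and 4 it was at 81.1, 47.5 and 47.7 CPM, also separate but highest in library 1. The genes of that arm did not share a highest library. Trib3, Chac1, Atf3, Atf4, Cebpb, Eif2ak3 and Eif2s1 were also highest in PSB-KD107 library 1. Nupr1, Cebpg and Ddit4 were highest in library 4, and Atf5, Asns, Sesn2 and Ppp1r15a in library 2. Vldlr was at 41.2 CPM in both libraries 2 and 4, and Ppp1r15b was highest in vehicle library 4. The part of collagen-folding, hypoxia-induced or ATF4-arm genes in the difference of Ero1l was not tested.

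**Figure D4:**
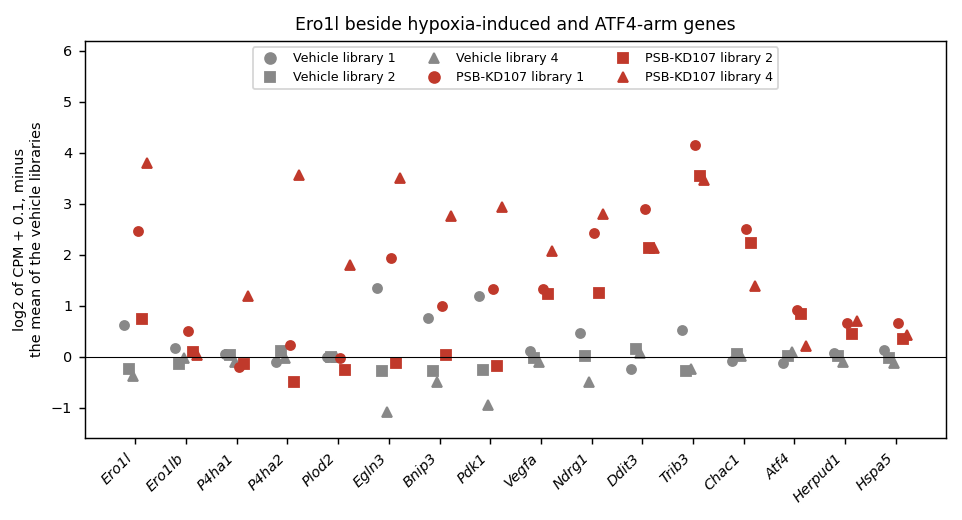
Log2 of CPM + 0.1 minus the mean of the vehicle libraries, per library, for Ero1l and Ero1lb, collagen hydroxylases (P4ha1, P4ha2, Plod2), hypoxia-induced genes (Egln3, Bnip3, Pdk1, Vegfa, Ndrg1), ATF4-arm genes (Ddit3, Trib3, Chac1, Atf4), Herpud1 and Hspa5; grey is vehicle, red PSB-KD107, and the symbol gives the library number. The red triangle of library 4 is the highest point for Ero1l, the collagen hydroxylases and the hypoxia-induced genes, while for Ddit3, Trib3, Chac1, Atf4 and Hspa5 the red circle of library 1 is.

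Exons of 9 members overlap those of another annotated gene. The longest shared stretches were 825 bases of Ppib with Snx22 on the opposite strand (25% of its exon length) and 415 bases of Hsp90b1 with 1810014B01Rik on the opposite strand (10.3%). How reads in such stretches were assigned is not given in the sources used here. Hspa5, Canx, Herpud1 and Ero1l have no such overlap.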

How the data were processed

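Poly(A) RNA of 3 vehicle and 3 PSB-KD107 cultures was sequenced in pairs, and per the study's methods reads were aligned to mm10 with STAR and compared with DESeq2; the counting program and its strand setting are not given in the sources used here. The authors deposited raw counts per gene, whole numbers with Ensembl identifiers and symbols. Library columns were matched to groups by name, since the numbers 1, 2 and 4 of the table do not match the numbering in the labels. Genes were kept by edgeR's filterByExpr (14165 of 47069). The main test was edgeR 4.0.16 (quasi-likelihood, TMM, both groups, no covariate, R 4.3.3) with Benjamini-Hochberg adjustment over all genes tested; SE is the log2 fold change divided by the root of F. DESeq2 1.42.0, limma-voom (limma 3.58.1), RLE scaling, no filter, the other form of the quasi-likelihood fit, replicate blocks and leaving out each library were alternatives, and the scripts were tested on simulated counts. Exon lengths and positions came from GENCODE M21 (GRCm38, the build mm10), promoters from RefSeq (GRCm38.p6). Total counts of 30917613 to 48756794 per library put 3 counts at 0.0596 to 0.0962 CPM.

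Members are all named; values per library are given for members past a threshold, the smallest p of each branch and 8 set genes, and from each related list the 3 genes of smallest p. Members and lists were chosen with earlier results of these data known. P-values measure the spread between libraries, and whether libraries of a number share a mouse is not stated. No pair of libraries was a duplicate. No value of the study's own comparison was used.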

Additional observations from a re-analysis of the deposited data

How the results depend on the processing

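No alternative moved the median of all genes tested by 0.1 on the log2 scale, and RLE scaling, the other form of the quasi-likelihood fit and limma-voom called no member, as edgeR did. Genes called at an adjusted p under 0.05 were 0 with edgeR, 8 without the filter on low counts, and 410 with DESeq2, which called 3 members. With 1 library left out, members called were 0 in each edgeR fit, as were all genes called. In DESeq2, a repeat chosen after seeing the data, members called were 1 to 5, with 1 (Canx) without vehicle 2 or vehicle 4. All genes called were not counted in these DESeq2 fits. Whether calls changed for the members or in general therefore cannot be told, and the cause was not tested. By edgeR, members higher at an unadjusted p under 0.05 were 4 to 11 (4 without vehicle 2 or vehicle 4, 11 without PSB-KD107 2). Members lower were 0 to 1 (1 without vehicle 1). The share of all genes past that threshold was not counted in these fits. Medians over these fits ran from 0.16 to 0.25 for members, 0.053 to 0.24 for oxidoreductases, 0.145 to 0.21 for ERAD and -0.081 to 0.24 for sensors, the negative one without vehicle 1.

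Deviations of same-numbered libraries from their group means correlated at 0.63, 0.52 and -0.13 for numbers 1, 2 and 4. Between libraries of different numbers the values ran from -0.70 to 0.64, the highest for vehicle 4 with PSB-KD107 2. The main test did not treat the numbers as pairs because those of the table do not match those of the labels. Within the table both groups carry the same numbers, so libraries of a number may come from 1 mouse, which is not stated. The main p-values take no account of such pairs. With the replicate block over all 6 libraries, the unadjusted threshold was passed by 11 members upward and 1 downward and none was called. With the replicate block on libraries 1 and 2, 2456 genes and 11 members were called, with 17 members past the unadjusted threshold upward and 1 downward. The share of all genes past that threshold was not counted in either block fit, so these counts are not read as a result about the members.

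Derl3 was -0.0758 with limma-voom and -0.53 with the block on libraries 1 and 2, where Pdia4 was at 0.0123, Erp44 at 0.00812 and Syvn1 at 0.008. With 1 library left out, the log2 fold change of Atf6 ran from -0.11 to 0.31, Ern1 from -0.0501 to 0.28, Os9 from -0.0372 to 0.0601, Erp44 from -0.17 to 0.0649, Dnajc3 from -0.26 to 0.59, Pdia4 from -0.18 to 0.0044 and Derl3 from -0.50 to 0.52. With 3 libraries a group, an exact permutation test cannot go below p = 0.1.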
